A study of Homo sapiens with 9 samples.

Results

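The long intergenic noncoding RNAs that carry a LINC number were followed in PANC-1 cells, a human pancreatic ductal carcinoma line, after treatment with 2 related natural products under hypoxia. A row of the deposited gene count table was a member when its GENCODE symbol was LINC followed only by digits and its mean raw count over the 9 libraries was at least 10. Of 553 rows with such a symbol, 83 met this rule, out of 112171 features in the whole table. The members were thus chosen by a measured value, the mean count over all libraries, so their abundance is given as a description, while the differences between treatments did not enter the rule. All 83 passed the filter on low counts and were tested among 22353 features. All cells were kept for 12 h under hypoxia, in medium with 42 nM rakicidin A, 41 nM BE-43547A1 or 0.04% DMSO, the solvent control, with 3 libraries in each group. Rakicidin A and BE-43547A1 are cyclic lipodepsipeptides, ring-shaped molecules built of amino acids and a fatty acid chain, and both are known for killing hypoxic cancer cells at doses that spare cells with ample oxygen. Their doses differed slightly, the labels do not give the DMSO content of the medium with compound, and no library came from cells at normal oxygen, so no value here is an effect of hypoxia itself.

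Long noncoding RNAs are transcripts that are not known to be translated, and LINC numbers are placeholder names given to those lying between coding genes until a function is described. Some act in the nucleus on the chromatin of nearby genes, some bind proteins or RNAs in the cytoplasm, some are only the precursors of microRNAs or small nucleolar RNAs, and some have later been found to encode a small protein. In carcinoma cells several of them, such as LINC00152, LINC00511 and LINC00346, are known to be raised and to favour growth. Most are made at low levels, and many lie beside or across a coding gene.

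The counts assigned to features numbered 27696394 to 30596594 per DMSO library, 26203326 to 34870860 per rakicidin A library and 39807220 to 45048999 per BE-43547A1 library. The members took 0.0871 to 0.0922% of these counts in the DMSO libraries, 0.0635 to 0.0651% in the rakicidin A libraries and 0.0594 to 0.0633% in the BE-43547A1 libraries. In these raw totals, both treated groups lay below all 3 DMSO libraries. Neither these shares nor those without LINC00657 are corrected for composition. The correction used in the tests (TMM) gave library factors of 1.14 to 1.15 for DMSO. For rakicidin A the factors were 0.890 to 0.898, and for BE-43547A1 they were 0.963 to 0.989. Dividing the shares by these factors would narrow the gaps to DMSO, most for rakicidin A. Without LINC00657, which alone held 37.4% of all member counts, the shares were 0.0548 to 0.0556%, 0.0391 to 0.0399% and 0.0387 to 0.0404%, again with no overlap between DMSO and treatment. The epithelial keratins and EPCAM summed to 2833 to 3034 CPM (counts scaled to library size) in the DMSO libraries. They summed to 2420 to 2535 CPM after rakicidin A and 3362 to 3625 CPM after BE-43547A1. Markers of other cell types were low. The 4 fibroblast markers summed to 5.58 to 9.64 CPM in the DMSO libraries, 3.20 to 4.42 CPM after rakicidin A and 3.84 to 5.66 CPM after BE-43547A1, and the 4 leukocyte markers to 1.53 to 1.81, 1.60 to 2.06 and 2.77 to 3.46 CPM. The 3 endothelial and 3 acinar markers stayed at or below 0.269 and 0.0639 CPM. CD3E (T cells) and PECAM1 (endothelium) were the only listed markers at 0 in every library. Compared with every DMSO library, the epithelial sum was lower in all rakicidin A libraries and higher in all BE-43547A1 libraries. The fibroblast sum was lower in every rakicidin A library and the leukocyte sum higher in every BE-43547A1 library than in any DMSO library. At trace levels, the endothelial sum was at most 0.0946 CPM in DMSO and at least 0.109 CPM after treatment. The acinar sum was also highest after rakicidin A. The part of these sums in the results was not tested. DMSO replicate 3 differed most from its group, so counts of members are also given without it. Whether the replicate libraries were separate cultures is not stated, so p-values measure only the spread between libraries, which may be technical. In bulk RNA, fewer cells making a transcript and less of it per cell cannot be told apart.

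Abundance was uneven. The mean raw count per library ran from 10.1 to 8930 with a median of 70.6, 45 members lay under 100, and the 6 members with most reads held 64.0% of all member counts. The 3 members just above the threshold were LINC00926 with a mean of 11.3 counts, LINC00854 with 10.7 and LINC00312 with 10.1, and the 3 LINC rows just below it were LINC00035 with 9.44 and LINC00324 and LINC00571, each with 9.11. Of the 470 rows below the threshold, 212 had no count in any library. Near the threshold a row could become a member through the level of 1 group alone, as with LINC00854, whose 9 libraries held 4 to 27 counts. Counts over the 38 members with a mean of at least 100 are therefore given beside those over all members.

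Most members that moved against DMSO moved down with either compound. After rakicidin A, 55 of the 83 members passed an adjusted p of 0.05 (edgeR's quasi-likelihood test, Benjamini-Hochberg adjustment over all features tested), against 64.7% of all tested features. Of these, 12 rose, or 14.5% of the members beside 31.9% of all features, and 43 fell, or 51.8% of the members beside 32.7%. The median log2 fold change of the members was -0.37, and that of all tested features was -0.02. After BE-43547A1, 66 members passed, where 70.4% of all features did. Here 17 rose, which is 20.5% of the members beside 35.3% of features, and 49 fell, 59.0% beside 35.1%, with a median of -0.59 for members and of 0.00 for all features. The share that passed was thus near that of all features, and the split between rises and falls was more one-sided. Among the 38 members with a mean count of at least 100, 6 rose and 23 fell after rakicidin A, and 7 rose and 28 fell after BE-43547A1.

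Both comparisons share the DMSO libraries, so they are not independent and are set side by side only. No member passed in opposite directions with TMM scaling, which corrects library sizes for composition (with total counts alone, LINC01004 had -0.41 and 0.80, both passing), and 11 passed in neither. These 11, read off after the tests, were LINC00106, LINC00167, LINC00174, LINC00176, LINC00240, LINC00265, LINC00313, LINC00493, LINC00674, LINC00926 and LINC01006. Their values ran from -0.49 to 0.38 with rakicidin A and from -0.41 to 0.56 with BE-43547A1, and most were scarce, so that a change of modest size would not have been detectable. A size of at least 1 on the log2 scale was reached by 7 rises and 27 falls after rakicidin A, where the shares over all features were 14% and 13.8% (27.8% together), and by 9 rises and 25 falls after BE-43547A1, where they were 17.5% and 14.1% (31.7% together). Without DMSO replicate 3 the calls were 12 rises and 45 falls after rakicidin A and 17 rises and 45 falls after BE-43547A1. Scaling by total counts alone, with no correction for composition, moved the median of all features to -0.38 and -0.24 and that of the members to -0.73 and -0.82. The members then split into 10 rises and 55 falls, and 13 rises and 51 falls. The map of all 83 members by library shows the same one-sidedness.

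**Figure D1:**
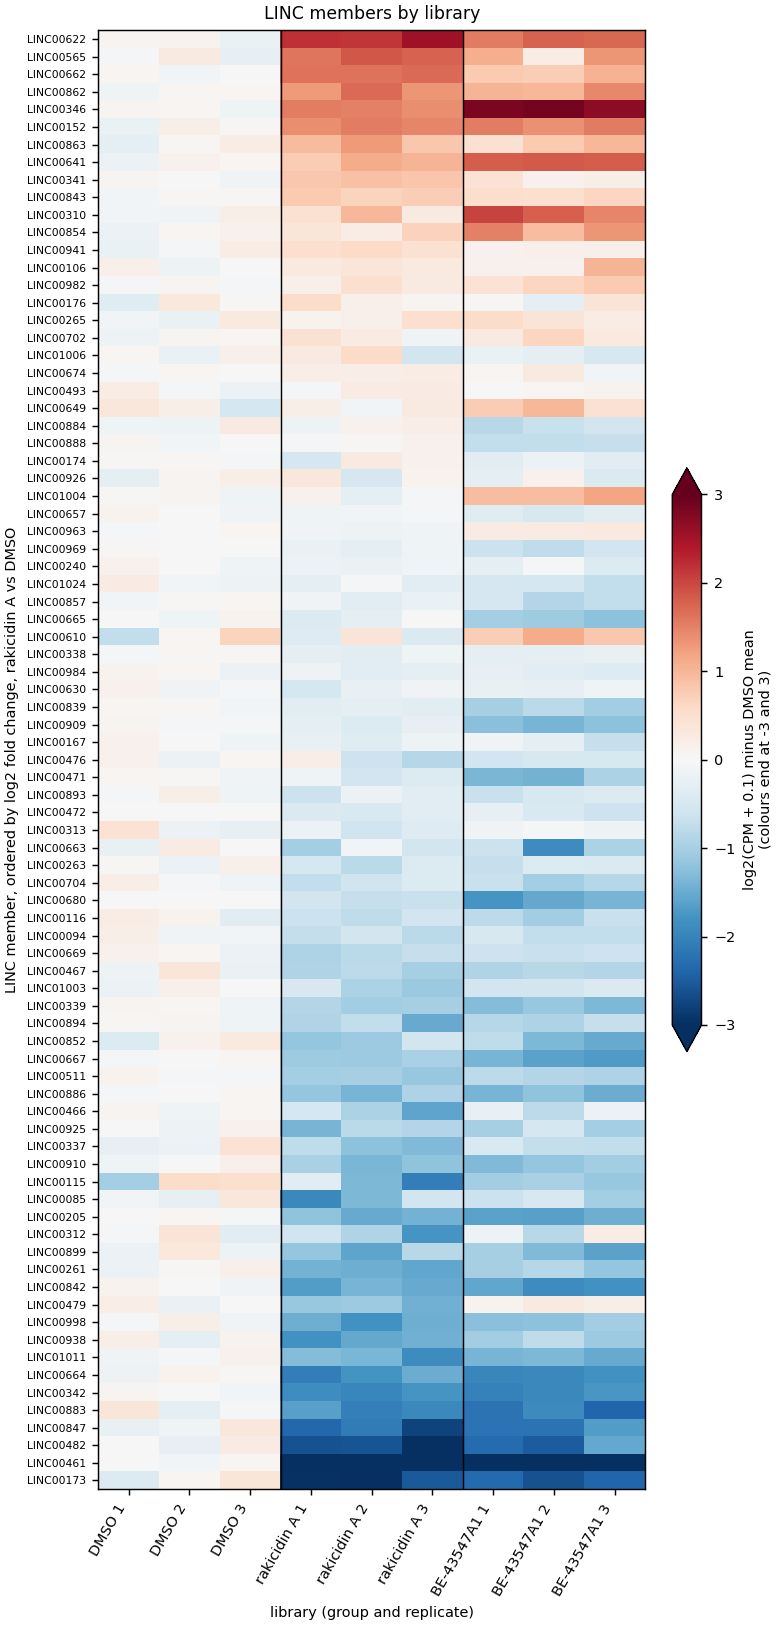
Each row is 1 LINC member and each column 1 library, and the colour gives log2(CPM + 0.1) minus the mean of the 3 DMSO libraries, with colours ending at -3 and 3. Rows are ordered by the fitted log2 fold change of rakicidin A against DMSO, from LINC00622 (3.23) to LINC00173 (-4.26), and blue rows outnumber red ones under both compounds.

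LINC00346 rose most after BE-43547A1 among the members with a mean of at least 0.5 CPM. Also called PRECSIT, it is a transcript known to be under p53 control and to favour STAT3 activity in carcinoma. It stood at 2.05, 1.99 and 1.73 CPM in the DMSO libraries, 5.79, 5.69 and 5.24 CPM after rakicidin A and 14.2, 14.6 and 12.9 CPM after BE-43547A1. The groups did not overlap, and the BE-43547A1 libraries lay above the rakicidin A libraries. The log2 fold change (± standard error of the fit, here and below) was 1.54 ± 0.12 after rakicidin A (adjusted p = 3.05e-09) and 2.86 ± 0.11 after BE-43547A1 (adjusted p = 7.47e-14).

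LINC00152, now CYTOR, is a cytoplasmic RNA named for its effect on the cytoskeleton and is raised in many carcinomas. Its level was 5.81, 7.61 and 6.91 CPM in the DMSO libraries, 17.8, 19.7 and 18.9 CPM after rakicidin A and 19.8, 17.7 and 20.2 CPM after BE-43547A1. Every treated library exceeded every DMSO library, and the treated groups overlapped each other. The rise was 1.47 ± 0.10 with rakicidin A (adjusted p = 2.14e-10) and 1.51 ± 0.10 with BE-43547A1 (adjusted p = 1.09e-10). It has a near-identical copy elsewhere on the same chromosome, and how reads were divided between them is not known.

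LINC00346 and LINC00152 were among the named members whose promoter window held a searched motif, here the AP-1 site TGAGTCA or TGACTCA, bound by FOS and JUN proteins. The windows are shown, 300 bases each from RefSeq on GRCh38.p14 and written 5′ to 3′ along the gene's strand, because both genes rose with both compounds. Capitals mark the AP-1 letters and, in LINC00346, also 1 match to the core of the hypoxia response element, ACGTG preceded by A or G, which is bound by HIF.
LINC00152, chr2:87455177-87455476, plus strand: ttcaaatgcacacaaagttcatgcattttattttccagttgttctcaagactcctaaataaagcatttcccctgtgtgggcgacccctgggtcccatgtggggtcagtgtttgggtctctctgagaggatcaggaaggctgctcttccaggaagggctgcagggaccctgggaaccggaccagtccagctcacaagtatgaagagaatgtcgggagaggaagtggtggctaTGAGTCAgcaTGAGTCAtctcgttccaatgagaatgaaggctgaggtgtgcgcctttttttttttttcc
LINC00346, chr13:110870259-110870558, minus strand: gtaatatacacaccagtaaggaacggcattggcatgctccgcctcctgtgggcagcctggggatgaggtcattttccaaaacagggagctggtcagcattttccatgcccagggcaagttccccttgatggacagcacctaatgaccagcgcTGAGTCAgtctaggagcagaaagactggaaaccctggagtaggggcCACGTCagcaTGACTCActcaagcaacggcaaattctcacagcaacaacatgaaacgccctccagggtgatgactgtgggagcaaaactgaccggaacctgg
In LINC00152 both AP-1 matches lay just before the annotated start, at -19 and -9. In LINC00346 they lay at -98 and -42, with the hypoxia element letters at -52, read on the other strand. A match in letters is a description and no binding was measured here.

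LINC00662 was the member with the second highest number of reads, and it is an RNA described in several carcinomas. It read 33.5, 30.6 and 32.8 CPM in the DMSO libraries, 101, 101 and 105 CPM after rakicidin A and 55.9, 54.2 and 66.2 CPM after BE-43547A1. The 3 groups were fully separate and the rakicidin A libraries were highest. The rise was 1.66 ± 0.07 with rakicidin A (adjusted p = 3.28e-13) and 0.86 ± 0.07 with BE-43547A1 (adjusted p = 3.89e-09).

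LINC00641, also among the abundant members, was highest after BE-43547A1. Its libraries stood at 11.6, 14.4 and 13.6 CPM in the DMSO libraries, 22.3, 28.6 and 26.8 CPM after rakicidin A and 46.9, 47. and 46.2 CPM after BE-43547A1, with no overlap between any 2 groups. The rise was 0.97 ± 0.09 after rakicidin A (adjusted p = 3.02e-08) and 1.82 ± 0.09 after BE-43547A1 (adjusted p = 2.23e-12). Its rise after rakicidin A was 0.61 when libraries were scaled by total counts alone.

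LINC00565, now SWINGN, is named as a noncoding RNA that binds the SWI/SNF chromatin remodeller and acts at the enhancer of GAS6. It was scarce, at 0.214, 0.284 and 0.17 CPM in the DMSO libraries, 0.873, 1.06 and 0.988 CPM after rakicidin A and 0.585, 0.272 and 0.706 CPM after BE-43547A1. The rakicidin A libraries lay above all others, while BE-43547A1 replicate 2 came within the DMSO range. The rise was 2.12 ± 0.36 with rakicidin A (adjusted p = 4.95e-05) and 1.22 ± 0.38 with BE-43547A1 (adjusted p = 0.00854). LINC00862, a transcript with no role known with certainty, went from 0.512 ± 0.0462 CPM (mean ± SD, n = 3) to 1.56 ± 0.281 CPM after rakicidin A and 1.28 ± 0.254 CPM after BE-43547A1, without overlap with DMSO (adjusted p = 1.32e-05 and 9.93e-05).

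The other named rises were smaller or belonged mainly to 1 compound. LINC00310 read 0.55, 0.537 and 0.682 CPM in the DMSO libraries, 0.837, 1.28 and 0.73 CPM after rakicidin A and 2.7, 2.3 and 1.8 CPM after BE-43547A1, so that its BE-43547A1 libraries lay above all others. Its fold change was 1.94 ± 0.24 after BE-43547A1 (adjusted p = 6.99e-07) and 0.71 ± 0.28 after rakicidin A (adjusted p = 0.0358). The latter fell to 0.42 (adjusted p = 0.255) without rakicidin A replicate 2, and it also missed the threshold without DMSO replicate 1 (adjusted p = 0.0824) or 2 (adjusted p = 0.0848). Scaling by total counts alone gave it 0.35 (adjusted p = 0.286). It was also lost without the filter on low counts (adjusted p = 0.0593) and with DESeq2 (adjusted p = 0.0503). LINC00863 rose by 1.11 ± 0.24 and 0.81 ± 0.23 with rakicidin A and BE-43547A1 respectively. LINC00341, which RefSeq lists as a synonym of the coding gene SYNE3, rose by 0.88 ± 0.16 with rakicidin A (adjusted p = 9.51e-05), and its value with BE-43547A1 was 0.27 ± 0.16 (adjusted p = 0.139). LINC00649 rose after BE-43547A1 (0.84 ± 0.30, adjusted p = 0.0167), but not once DMSO replicate 3 (0.56, adjusted p = 0.111) or BE-43547A1 replicate 2 (0.71, adjusted p = 0.0716) was left out. Its call was also lost with scaling by total counts alone (0.61, adjusted p = 0.0740) and with DESeq2 (adjusted p = 0.0542).

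**Figure D2:**
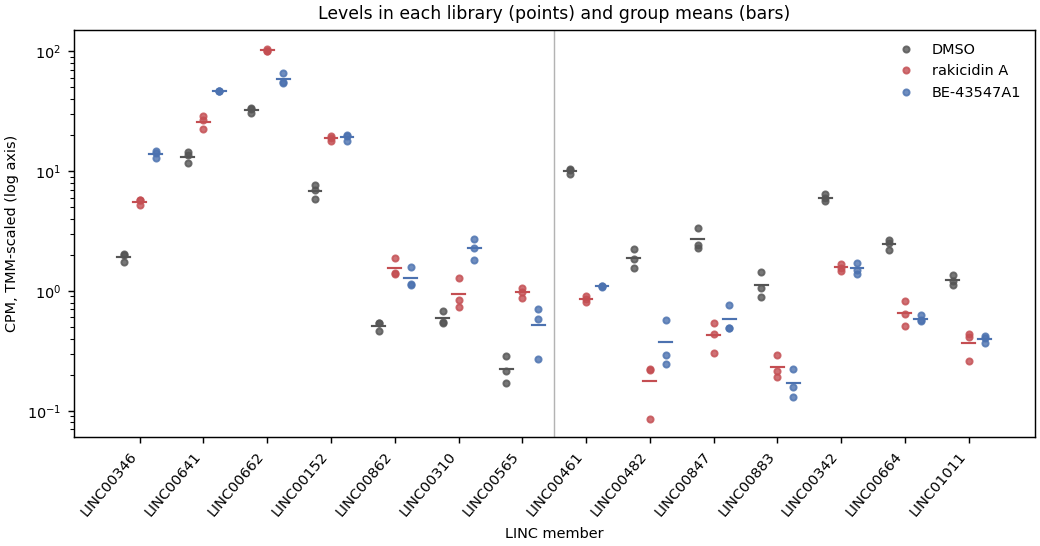
CPM on a log axis in each of the 9 libraries for 7 named members that rose (left of the line) and 7 that fell (right of the line). Points are libraries, coloured by group, and bars are group means. LINC00346 climbs from 1.92 CPM in DMSO to 13.9 CPM after BE-43547A1, and LINC00461 drops from 10. to 0.855 CPM after rakicidin A.

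LINC00461 had the largest fall among the members with a mean of at least 0.5 CPM, with either compound. RefSeq calls it MIR9-2HG, the host transcript of a miR-9 hairpin, a microRNA known from neural development. Its level was 10.1, 9.44 and 10.5 CPM in the DMSO libraries, 0.801, 0.863 and 0.902 CPM after rakicidin A and 1.1, 1.09 and 1.1 CPM after BE-43547A1. All treated libraries lay far below the DMSO libraries, which differed little among themselves. The log2 fold change was -3.55 ± 0.14 with rakicidin A (adjusted p = 8.83e-14) and -3.19 ± 0.12 with BE-43547A1 (adjusted p = 7.52e-14).

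A second miR-9 host, LINC00925 or MIR9-3HG, was scarcer and fell with both compounds. It read 0.642, 0.569 and 0.71 CPM in the DMSO libraries, 0.182, 0.32 and 0.301 CPM after rakicidin A and 0.27, 0.42 and 0.261 CPM after BE-43547A1, without overlap between DMSO and treatment. The falls were -1.25 ± 0.34 (adjusted p = 0.00368) and -1.01 ± 0.30 (adjusted p = 0.00611) for rakicidin A and BE-43547A1. Both loci yield the same mature microRNAs, and they are shown because these 2 hosts fell together. The seed, bases 2 to 8, is in capitals, and the sequences are RefSeq's on GRCh38.p14.
hsa-miR-9-5p: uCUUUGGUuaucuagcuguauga
hsa-miR-9-3p: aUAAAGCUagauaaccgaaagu
A further host, LINC00669 or MIR924HG, carries a microRNA with another seed.
hsa-miR-924: aGAGUCUUgugaugucuugc
LINC00669 fell from 2.51 ± 0.283 CPM in DMSO (mean ± SD, n = 3) to 1.38 ± 0.115 CPM after rakicidin A (adjusted p = 2.23e-04) and 1.57 ± 0.037 CPM after BE-43547A1 (adjusted p = 8.96e-04). The rows of these mature microRNAs held 0 counts over the 9 libraries, so the mature forms were not measured by these data and only their hosts are described.

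The remaining hosts were those of LINC00969, LINC00338 and LINC00888. LINC00969, now MIR570HG, fell with BE-43547A1 (-0.67 ± 0.09, adjusted p = 4.22e-06) and had a value of -0.20 ± 0.10 with rakicidin A (adjusted p = 0.0776). Of its exon bases, 24.1% are shared with other models, among them MUC20 and SDHAP2. LINC00338 is SNHG20, a host of small nucleolar RNAs, and fell with both (-0.26 ± 0.09 and -0.27 ± 0.09, adjusted p = 0.0145 and 0.00811). With rakicidin A replicate 1 left out the former missed the threshold (adjusted p = 0.0701), as it did with replicate 2 left out (adjusted p = 0.101). LINC00888, or SNHG33, fell with BE-43547A1 (-0.74 ± 0.09, adjusted p = 9.48e-07) and stood at 0.03 ± 0.09 with rakicidin A (adjusted p = 0.781). Of the 6 members that RefSeq names as host genes, 4 fell after rakicidin A and 6 after BE-43547A1, beside 51.8% and 59.0% of all members and 32.7% and 35.1% of all features, and none rose. LINC00085, listed under the ID of the coding gene SPACA6 that spans a microRNA cluster, also fell with both, by -1.37 ± 0.30 and -0.78 ± 0.26. The fall with BE-43547A1 (adjusted p = 0.0128) missed the threshold without DMSO replicate 3 (adjusted p = 0.0738) or BE-43547A1 replicate 3 (adjusted p = 0.0600).

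LINC00482 and LINC00847 fell from low levels. LINC00482 read 1.83, 1.55 and 2.22 CPM in the DMSO libraries, 0.218, 0.224 and 0.0859 CPM after rakicidin A and 0.292, 0.247 and 0.575 CPM after BE-43547A1. LINC00847 read 2.26, 2.43 and 3.38 CPM in the DMSO libraries, 0.437, 0.544 and 0.301 CPM after rakicidin A and 0.495, 0.494 and 0.758 CPM after BE-43547A1. In both, every treated library lay below every DMSO library. LINC00482 changed by -3.33 ± 0.35 with rakicidin A (adjusted p = 1.38e-07) and -2.34 ± 0.28 with BE-43547A1 (adjusted p = 5.96e-07), and LINC00847 by -2.62 ± 0.27 (adjusted p = 7.18e-08) and -2.22 ± 0.23 (adjusted p = 9.16e-08). LINC00847 overlaps the zinc finger gene ZFP62, which fell by -2.11 ± 0.08 and -2.42 ± 0.08, from 43.4 ± 0.192 CPM in DMSO. In GENCODE v29 the exons of LINC00847 share no bases with those of ZFP62, and 21.0% of them overlap HEIH on the opposite strand. The strand setting of the counting is not given in the sources used here, so reads over the bases shared with HEIH cannot be told apart.

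The promoter windows of these 2 are shown beside those of the rising pair, because each held 1 match to the core of the hypoxia response element and none to AP-1. Capitals mark that match.
LINC00847, chr5:180830707-180831006, plus strand: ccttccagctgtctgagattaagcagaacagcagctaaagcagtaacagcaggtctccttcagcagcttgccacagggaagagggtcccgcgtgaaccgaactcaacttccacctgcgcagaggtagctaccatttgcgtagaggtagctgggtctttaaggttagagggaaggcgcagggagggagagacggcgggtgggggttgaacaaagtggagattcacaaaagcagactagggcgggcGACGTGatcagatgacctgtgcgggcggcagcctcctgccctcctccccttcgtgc
LINC00482, chr17:81309199-81309498, minus strand: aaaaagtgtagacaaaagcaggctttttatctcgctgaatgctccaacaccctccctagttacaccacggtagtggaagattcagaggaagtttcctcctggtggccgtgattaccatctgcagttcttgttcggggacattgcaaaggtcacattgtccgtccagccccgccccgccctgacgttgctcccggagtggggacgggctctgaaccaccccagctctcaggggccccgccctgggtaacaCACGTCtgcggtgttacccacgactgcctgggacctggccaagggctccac
The match lay at -6 in LINC00847 and at -1 in LINC00482, where it is read on the other strand. Motif letters thus occurred in windows of genes that rose and of genes that fell.

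LINC00342 was among the more even falls. It stood at 6.39, 5.94 and 5.68 CPM in the DMSO libraries, 1.56, 1.47 and 1.68 CPM after rakicidin A and 1.39, 1.51 and 1.73 CPM after BE-43547A1, with the treated groups overlapping each other well below DMSO. The fold changes were -1.94 ± 0.14 and -1.96 ± 0.13 (adjusted p = 9.16e-10 and 2.80e-10). LINC00664, which lies among zinc finger genes and shares exon bases with ZNF429, read 2.2, 2.65 and 2.53 CPM in the DMSO libraries, 0.509, 0.639 and 0.816 CPM after rakicidin A and 0.562, 0.568 and 0.627 CPM after BE-43547A1. It fell by -1.92 ± 0.21 with rakicidin A and by -2.07 ± 0.20 with BE-43547A1, and ZNF429 itself fell by -2.29 ± 0.13 and -2.88 ± 0.13.

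LINC00883 is now DUBR, named as an RNA that binds upstream of the DPPA2 gene. Its libraries read 1.44, 0.884 and 1.05 CPM in the DMSO libraries, 0.291, 0.192 and 0.215 CPM after rakicidin A and 0.157, 0.222 and 0.131 CPM after BE-43547A1, again with no overlap with DMSO. It fell by -2.26 ± 0.33 with rakicidin A (adjusted p = 7.67e-06) and -2.70 ± 0.32 with BE-43547A1 (adjusted p = 4.38e-07). LINC01011, whose exons touch those of NQO2, went from 1.23 ± 0.12 CPM in DMSO (mean ± SD, n = 3) to 0.37 ± 0.0978 CPM with rakicidin A and 0.397 ± 0.0278 CPM with BE-43547A1 (adjusted p = 1.70e-05 and 7.80e-06). LINC00842 fell by -1.55 ± 0.14 and -1.80 ± 0.13 with rakicidin A and BE-43547A1 in that order. LINC00938 went from 6.22 ± 1.08 CPM to 1.97 ± 0.267 and 3.12 ± 0.403 CPM (adjusted p = 5.17e-08 and 6.54e-06). All 4 passed in both comparisons.

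LINC00173 and LINC00622 fell outside the rule for named members, because their mean level was under 0.5 CPM, and were chosen after their values were seen. They had the largest fitted fall and rise of all members after rakicidin A. LINC00173 stood at 0.703, 1.01 and 1.28 CPM in the DMSO libraries, 0.0364, 0.032 and 0.0859 CPM after rakicidin A and 0.112, 0.0741 and 0.105 CPM after BE-43547A1, and its fold changes were -4.26 ± 0.48 and -3.31 ± 0.37 (adjusted p = 2.73e-07 and 2.31e-07). LINC00622 stood at 0.0917, 0.0948 and 0.0568 CPM in the DMSO libraries, 0.728, 0.703 and 0.945 CPM after rakicidin A and 0.427, 0.519 and 0.497 CPM after BE-43547A1, with fold changes of 3.23 ± 0.39 and 2.52 ± 0.41 (adjusted p = 7.69e-07 and 2.18e-05). Neither had overlap between DMSO and treatment. These levels rest on few reads, with 1, 1 and 2 counts of LINC00173 in the rakicidin A libraries. Such scarce rows could meet the rule on mean counts through the groups where they were high, DMSO for LINC00173 and treatment for LINC00622. The size of their changes is thus not independent of that rule.

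The member with most reads was LINC00657, known as NORAD, a cytoplasmic RNA that binds PUMILIO proteins and guards genome stability. It read 319.9, 296 and 276 CPM in the DMSO libraries, 272, 279 and 283 CPM after rakicidin A and 232, 214 and 237 CPM after BE-43547A1. The rakicidin A libraries lay within or next to the DMSO range, while the BE-43547A1 libraries lay below it. It fell with BE-43547A1 (-0.38 ± 0.06, adjusted p = 1.72e-05), and its value with rakicidin A was -0.10 ± 0.06 (adjusted p = 0.172), which passed without DMSO replicate 3 (-0.15, adjusted p = 0.0222) or with scaling by total counts alone (-0.45). Per length of its exons it stood far above the rest, at 55.7 CPM per kilobase in DMSO, ahead of LINC00941 at 7.88, LINC00493 at 7.38 and LINC00839 at 6.77. Exon lengths come from GENCODE v29, a later annotation than the counts used, for the 79 members it holds. In LINC00941 these exons are shared with a duplicate model.

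LINC00511, LINC00667 and LINC00963 were the remaining abundant members. LINC00511, an RNA beside SOX9 that is raised in carcinomas, read 65.4, 58.6 and 58.7 CPM in the DMSO libraries, 29.9, 30.2 and 27.7 CPM after rakicidin A and 35.2, 32.9 and 31.9 CPM after BE-43547A1. It fell with both compounds (-1.05 ± 0.07 and -0.87 ± 0.07, adjusted p = 9.60e-11 and 9.97e-10). LINC00667 fell from 30.7 ± 1.24 CPM in DMSO (mean ± SD, n = 3) to 14.8 ± 0.597 CPM with rakicidin A and 10.3 ± 1.16 CPM with BE-43547A1, with 3 separate groups. LINC00963 was higher after BE-43547A1 (0.26 ± 0.06, adjusted p = 5.36e-04), a call lost with scaling by total counts alone (0.03, adjusted p = 0.684). With rakicidin A its value was -0.12 ± 0.06 (adjusted p = 0.0842), which passed with scaling by total counts alone (-0.48, adjusted p = 1.08e-06).

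Of 10 LINC entries listed as described in pancreatic or other carcinoma, 6 were members. With rakicidin A, 3 rose (LINC00152, LINC00346 and LINC00941) and 2 fell (LINC00261 and LINC00511). With BE-43547A1, 2 rose (LINC00152 and LINC00346) and 3 fell (LINC00261, LINC00511 and LINC00857). Of all features, 31.9% rose and 32.7% fell with rakicidin A, and 35.3% and 35.1% with BE-43547A1. LINC00941 reached 0.51 ± 0.10 with rakicidin A (adjusted p = 1.47e-04), which was 0.15 (adjusted p = 0.185) with scaling by total counts alone, and 0.13 ± 0.10 with BE-43547A1 (adjusted p = 0.22), which passed without DMSO replicate 3 (0.24, adjusted p = 0.0183). LINC00857 stood at -0.22 ± 0.13 with rakicidin A (adjusted p = 0.137), which passed with scaling by total counts alone (-0.58, adjusted p = 6.63e-04), and at -0.72 ± 0.13 with BE-43547A1 (adjusted p = 5.24e-05). LINC00261, an RNA made beside the endoderm factor FOXA2 and known from endoderm differentiation, read 5.17, 6.06 and 6.54 CPM in the DMSO libraries, 2.15, 2.08 and 1.93 CPM after rakicidin A and 2.92, 3.19 and 2.56 CPM after BE-43547A1. Its groups were separate and it fell by -1.52 ± 0.14 with rakicidin A and -1.03 ± 0.13 with BE-43547A1. The list thus held members that moved either way, and its median was 0.14 with rakicidin A and -0.29 with BE-43547A1.

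Most members on a list of loci now known or reported to encode a small protein fell. The 10 members that RefSeq lists as protein-coding, of which LINC00341 and LINC00610 were matched by synonym only, are only partly the same loci. They gave 1 rise and 4 falls with rakicidin A, and 2 rises and 5 falls with BE-43547A1. Of the 13 entries of the list, 5 were members, and 4 of these fell with each compound while none rose. Among all members 51.8% and 59.0% fell, and among all features 32.7% and 35.1%. LINC00998, now SMIM30, a small membrane protein gene, read 10.8, 12.8 and 10.5 CPM in the DMSO libraries, 4.0, 3.13 and 4.04 CPM after rakicidin A and 4.68, 4.77 and 5.39 CPM after BE-43547A1 and fell by -1.61 ± 0.12 and -1.20 ± 0.11 (adjusted p = 1.48e-09 and 2.54e-08). LINC00116 is MTLN and encodes mitoregulin, a microprotein of the inner mitochondrial membrane. It went from 10.4 ± 2.02 CPM in DMSO (mean ± SD, n = 3) to 6.45 ± 0.432 and 5.76 ± 0.773 CPM (adjusted p = 2.41e-04 and 1.55e-05). LINC00467 fell by -0.93 ± 0.16 and -0.92 ± 0.15, and LINC00094, or BRD3OS, whose exons overlap those of the chromatin reader BRD3, by -0.70 ± 0.13 and -0.66 ± 0.12. LINC00493, now SMIM26, had values of 0.15 ± 0.12 (95% interval -0.10 to 0.39) and 0.05 ± 0.11 (95% interval -0.19 to 0.28), neither of which passed. Without DMSO replicate 1 the former was 0.28 (adjusted p = 0.047).

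By RefSeq's current names, 49 of the 83 loci keep a LINC symbol and 34 have another. RefSeq lists 10 as protein-coding, 6 as host genes, 7 as divergent transcripts sharing a promoter region with a coding gene, 2 as antisense or overlapping and 9 under another name of their own. Among the 49 that kept the name, 7 rose and 28 fell with rakicidin A and 10 rose and 27 fell with BE-43547A1. The 10 protein-coding loci gave 1 rise and 4 falls, then 2 rises and 5 falls. Among these, LINC00341 (SYNE3) and LINC00610 (COMMD9) were matched by synonym only. Whether their rows count the coding gene is not known, and LINC00341 gave the rise with rakicidin A. GENCODE v29 lists 8 members as protein-coding. The 7 divergent transcripts gave no rise and 3 falls, then 1 rise and 4 falls, and the 9 with another name gave 4 rises and 3 falls, then 4 rises and 5 falls. Leaving out the protein-coding loci, 73 members remained, with 11 rises and 39 falls, then 15 rises and 44 falls. Of all features, 31.9% rose and 32.7% fell with rakicidin A, and 35.3% and 35.1% with BE-43547A1. Of all 83 members, 14.5% rose and 51.8% fell, then 20.5% and 59.0%. The smaller classes are too small to be set apart from these shares.

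**Figure D3:**
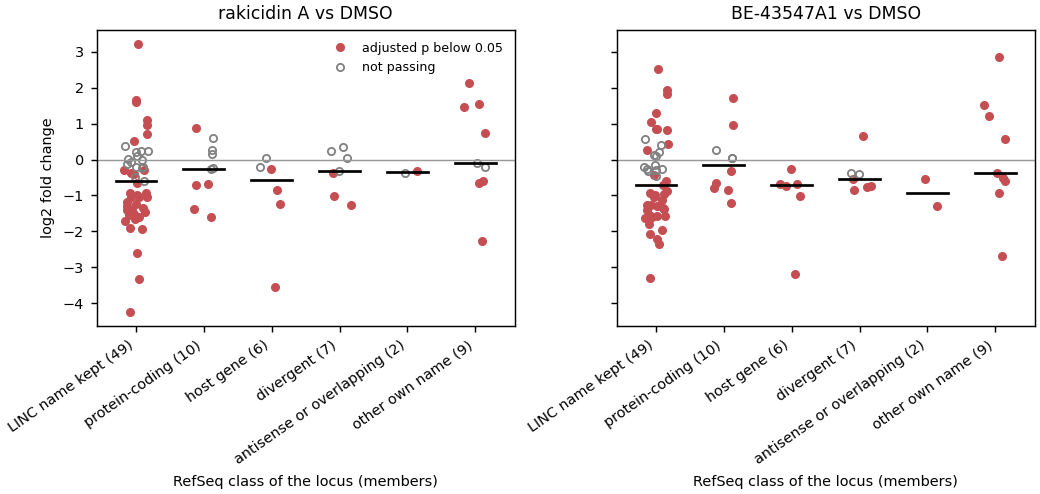
Log2 fold change of each of the 83 members against DMSO, by RefSeq class of the locus, for rakicidin A (left) and BE-43547A1 (right). Filled points passed an adjusted p of 0.05, open points did not, and bars are class medians. The 49 members that keep a LINC name have medians of -0.60 and -0.72, and the 6 host genes hold no filled point above 0.

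Members with and without shared exon bases both mostly fell where they passed. GENCODE v29 holds 79 of the members, and 39 of these share exon bases with another gene, on either strand. The 40 without such overlap gave 6 rises and 17 falls with rakicidin A and 10 rises and 21 falls with BE-43547A1. The 39 with overlap gave 5 rises and 24 falls, then 6 rises and 27 falls. Of all features, 31.9% rose and 32.7% fell with rakicidin A, and 35.3% and 35.1% with BE-43547A1. Falls outnumbered rises in both sets under both compounds, and the difference between the sets was not tested.

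Compared directly, rakicidin A and BE-43547A1 differed in fewer members. Of the 83, 28 passed, or 33.7%, while 46.6% of all features did. Rakicidin A was higher in 16, beside 24.1% of all features, and lower in 12, beside 22.5%. No member was higher by at least 1 on the log2 scale, where 2.16% of features were, and 6 were lower by as much, where 7.53% were (9.69% for both directions). The median of the members was 0.061, and it was -0.060 with scaling by total counts alone, which also gave 15 members in each direction. Of the 55 members that did not pass, 41 had a 95% interval of the difference within 1 of 0 in either direction, so that a larger difference lay outside their intervals, and the rest were not measured closely enough for that.

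Rakicidin A left LINC00909 higher. RefSeq calls it ZNF407-AS1, an antisense partner of a zinc finger gene. It read 18.7, 17.1 and 17.2 CPM in the DMSO libraries, 14.7, 13.4 and 14.8 CPM after rakicidin A and 7.29, 6.7 and 7.42 CPM after BE-43547A1, so that the rakicidin A libraries lay between the others without overlap. The difference between compounds was 1.00 ± 0.09 (adjusted p = 4.11e-08), with falls of -0.31 ± 0.08 and -1.31 ± 0.08 against DMSO for rakicidin A and BE-43547A1. LINC00680 had the same order, at 13.1, 13.5 and 13.4 CPM in the DMSO libraries, 8.99, 8.15 and 8.38 CPM after rakicidin A and 3.82, 4.55 and 5.02 CPM after BE-43547A1, and differed by 0.93 ± 0.11 (adjusted p = 1.16e-06). LINC00471, LINC00665 and LINC00884 were also higher with rakicidin A, by 0.90 ± 0.17, 0.89 ± 0.13 and 0.81 ± 0.21 (adjusted p = 2.41e-04, 1.26e-05 and 0.00355). In these 3, BE-43547A1 lowered the level, and against DMSO rakicidin A gave -0.38 ± 0.16, -0.23 ± 0.12 and 0.05 ± 0.20. The first of these passed narrowly (adjusted p = 0.0417) and did not pass once rakicidin A replicate 2 (-0.25, adjusted p = 0.22) or replicate 3 (-0.33, adjusted p = 0.118) was left out, nor once DMSO replicate 1 (adjusted p = 0.098) or 2 (adjusted p = 0.0907) was. It also missed the threshold when BE-43547A1 replicate 2 was dropped (adjusted p = 0.0518), without the filter on low counts (adjusted p = 0.0634) and with DESeq2 (adjusted p = 0.0781). LINC00665 passed against DMSO without rakicidin A replicate 3 (-0.33, adjusted p = 0.0295) and with scaling by total counts alone (-0.59, adjusted p = 2.55e-04).

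LINC00565 was higher with rakicidin A by 0.90 ± 0.30 (adjusted p = 0.0186), which depended on single libraries. Without BE-43547A1 replicate 2 the difference was 0.60 (adjusted p = 0.0999), and without rakicidin A replicate 2 it was 0.84 (adjusted p = 0.0699). With all libraries DESeq2 gave 0.91 (adjusted p = 0.0521). In the other direction LINC00346 differed most among the members with a mean of at least 0.5 CPM, by -1.32 ± 0.10 (adjusted p = 7.52e-09), since it rose more with BE-43547A1. LINC00310 followed with -1.23 ± 0.22 and LINC00641 with -0.85 ± 0.09 (adjusted p = 1.86e-04 and 2.50e-07). LINC01004, a transcript beside the chromatin reader gene KMT2E, read 3.06, 3.19 and 2.73 CPM in the DMSO libraries, 3.28, 2.46 and 2.92 CPM after rakicidin A and 5.76, 5.76 and 6.93 CPM after BE-43547A1. Its DMSO and rakicidin A libraries overlapped and the BE-43547A1 libraries lay above both, with a difference of -1.09 ± 0.14 between the compounds (adjusted p = 3.20e-06).

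Rakicidin A lowered LINC00938 and LINC00261 further than BE-43547A1 did. The differences were -0.67 ± 0.17 (adjusted p = 0.00413) and -0.49 ± 0.15 (adjusted p = 0.0129). The latter missed the threshold without rakicidin A replicate 3 (-0.44, adjusted p = 0.0544) or BE-43547A1 replicate 2 (-0.42, adjusted p = 0.0595). For LINC00461 the 95% interval of the difference was -0.74 to 0.03, for LINC00152 -0.22 to 0.15 and for LINC00342 -0.32 to 0.37, so that these members differed between the compounds by less than 1 on the log2 scale in either direction within those intervals.

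**Figure D4:**
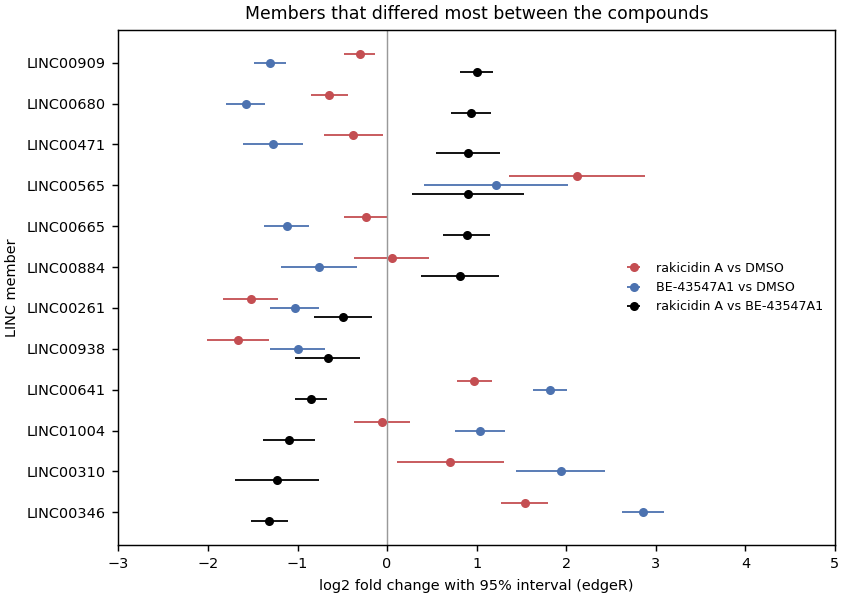
Fitted log2 fold changes with 95% intervals for the 12 named members that differed most between the compounds, with rakicidin A against DMSO in red, BE-43547A1 against DMSO in blue and rakicidin A against BE-43547A1 in black. LINC00909 is the top row (1.00 in black) and LINC00346 the bottom row (-1.32).

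Another 9 members carry a current RefSeq name that points to a coding partner with a tested row, as divergent or antisense transcripts. With rakicidin A, 4 of these 9 pairs had both partners passing, 1 in the same direction and 3 in opposite ones, and with BE-43547A1 there were 7, of which 3 moved the same way and 4 in opposite ways. Of the coding partners, 6 rose and 2 fell with rakicidin A, beside 31.9% and 32.7% of all features. With BE-43547A1, 6 rose and 3 fell, beside 35.3% and 35.1%. Since partners mostly rose and members mostly fell, opposite pairs say little about the pairing itself. LINC00894, or EOLA2-DT, fell by -1.02 ± 0.16 and -0.85 ± 0.15 while EOLA2 rose by 0.87 ± 0.08 and 0.61 ± 0.08. This locus lies in a duplicated segment shared with LINC00893 and EOLA1, so how reads were divided is uncertain. LINC00909 fell while ZNF407, a zinc finger gene, rose by 0.31 ± 0.06 and 0.64 ± 0.06. LINC00884, or ATP13A3-DT, fell with BE-43547A1 (-0.76 ± 0.20, adjusted p = 0.00259) while ATP13A3, a polyamine transporter gene, rose by 0.77 ± 0.05. LINC00337, or ICMT-DT, fell by -1.27 ± 0.29 and -0.74 ± 0.25, and ICMT, a methyltransferase that finishes prenylated proteins, fell too, by -0.81 ± 0.06 and -0.97 ± 0.06. LINC00893 fell with both compounds, while EOLA1 rose with rakicidin A and fell with BE-43547A1. With BE-43547A1, LINC00982 and PRDM16 both rose, and LINC00476 fell while ERCC6L2 rose.

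Beyond named partners, 69 members had a tested protein-coding gene next to them in RefSeq's order of genes. Only the adjacent coding gene on either side was considered, and genes overlapping the member were left out. The nearer was taken, or the farther where the nearer had no tested row, at whatever distance. Across these 69 pairs the log2 fold changes of member and neighbour had a Pearson correlation of 0.0035 with rakicidin A and 0.22 with BE-43547A1, and a Spearman correlation of 0.076 and 0.29. These are descriptions over pairs that share the same libraries, with no test. For the 39 paired members that fell after rakicidin A, 18 neighbours rose, 19 fell and 2 did not pass. Of all features, 31.9% rose and 32.7% fell. For the 43 that fell after BE-43547A1, 10 neighbours rose, 20 fell and 13 did not pass, beside 35.3% and 35.1% of features. Of the 9 members that rose after rakicidin A, 5 had a neighbour that rose, 2 one that fell and 2 one that did not pass, where 31.9% of all features rose. Of the 13 that rose after BE-43547A1, 11 had a neighbour that rose and 2 one that fell, where 35.3% of all features rose.

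Single pairs moved either way. LINC00346 lies between ING1, a chromatin-binding growth suppressor, and ANKRD10, and ING1 rose by 0.86 ± 0.08 with rakicidin A and 1.66 ± 0.08 with BE-43547A1 (adjusted p = 2.30e-08 and 9.97e-13). ING1 was thus higher with BE-43547A1, as LINC00346 was, by a direct difference of -0.80 ± 0.07 (rakicidin A against BE-43547A1). LINC01004 and KMT2E both rose with BE-43547A1, KMT2E by 0.87 ± 0.06, and LINC00310 rose beside MRPS6, a mitochondrial ribosomal protein gene, which rose by 0.77 ± 0.08. LINC00261 and FOXA2 both fell, FOXA2 by -0.54 ± 0.09 and -0.78 ± 0.09. LINC00622 and ZNF697, a zinc finger gene, both rose, ZNF697 by 1.76 ± 0.06 and 1.47 ± 0.06. Against these, LINC00883 fell while CBLB, a ubiquitin ligase gene, rose by 2.02 ± 0.09 and 0.92 ± 0.09, and LINC00461 fell while MEF2C, a muscle and neuron transcription factor gene, rose by 0.34 ± 0.06 and 0.30 ± 0.06. LINC00662 rose while UQCRFS1, the iron-sulphur subunit of respiratory complex III, fell by -0.34 ± 0.07 and -0.72 ± 0.07. LINC00511 fell, its neighbour SLC39A11 fell by -0.33 ± 0.07 and -0.58 ± 0.07, and SOX9 on its other side rose by 0.42 ± 0.11 and 0.61 ± 0.11. LINC00565 rose with rakicidin A while GAS6, which it is named for, fell by -0.47 ± 0.15 (adjusted p = 0.0121).

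**Figure D5:**
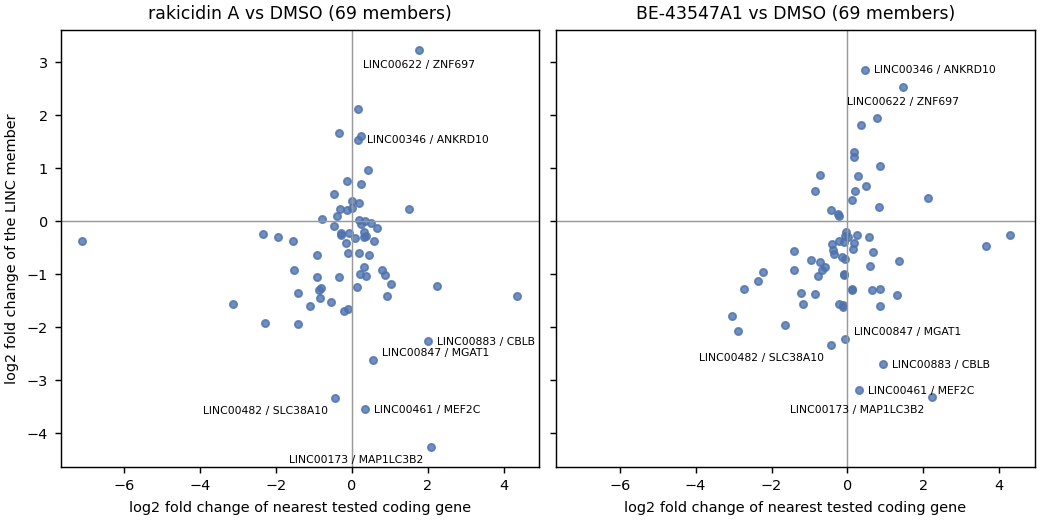
Log2 fold change of each of 69 LINC members (vertical) against that of its neighbour (horizontal), for rakicidin A (left) and BE-43547A1 (right). The neighbour is the nearer of the adjacent coding genes that had a tested row, with overlapping genes left out. Points are member and neighbour pairs and lines mark 0. LINC00622 lies with its neighbour at the upper right of both panels, and LINC00883 and LINC00173 lie at the lower right, with a neighbour that rose.

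Promoter windows of 68 members were in the RefSeq table. The AP-1 letters TGAGTCA or TGACTCA, sought on both strands as were all motifs, occurred in 5 of them, or 7.35%, beside 4.95% of all 35116 promoters. The core of the hypoxia response element occurred in 11, or 16.2%, beside 12.7%. The cAMP response element TGACGTCA occurred in 2, or 2.94%, beside 1.85%. No window held the C/EBP-ATF element TGATGCAAT, TGATGAAAT or TGATGTAAT, found in 0.832% of all promoters, or the ER stress element, found in 0.0769%. The AP-1 windows were those of LINC00152 and LINC00346, which rose with both compounds, of LINC00963 and LINC00702, which were higher with BE-43547A1, and of LINC00704, which fell with both. Of the windows with the hypoxia element, that of LINC00346 belonged to a member that rose with both compounds and that of LINC00941 to one that rose with rakicidin A. LINC00665 fell with BE-43547A1. LINC00261, LINC00482, LINC00511, LINC00847, LINC00886, LINC00894, LINC00899 and LINC00910 fell with both.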

How the data were processed

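Total RNA of PANC-1 cells was sequenced in 9 libraries as paired reads, per the labels' protocols, and the authors deposited 1 table of raw counts per feature. Alignment and counting used the tools TopHat2 and HTSeq with build GRCh37 (hg19), per the submitters' processing notes. Their versions (listed as 2) and the strand setting are not otherwise given in the sources used here. Rows naming no feature stayed out of library sizes and held 16.4 to 20.8% (no feature), 2.65 to 2.94% (ambiguous) and 19.1 to 22.4% (multiple alignments) of each library's total.

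Counts were tested with edgeR 4.0.16 in R 4.3.3: TMM scaling, filterByExpr, a quasi-likelihood fit with 1 mean per group over all 9 libraries, and Benjamini-Hochberg adjustment over 22353 features (threshold 0.05). The fit was tested on simulated data. CPM are counts scaled to the TMM-corrected library total. The members and the gene lists were chosen with earlier results of these data known. Named members were the 8 largest rises and 8 largest falls against DMSO and the 6 largest differences each way between compounds, among those that passed with a mean of at least 0.5 CPM and groups without overlap, plus the 6 with most reads and the listed members. No 2 libraries of the same group agreed within sampling noise. RefSeq names were matched by gene ID (76), symbol (2) or synonym (5). Apart from those of the promoter windows, coordinates are not printed, because annotations here are on GRCh38 and the counts on GRCh37. Alternatives were other scalings, no filter, DESeq2 1.42.0, fewer libraries, GENCODE features alone, a replicate block and thinning. Figures were drawn with matplotlib 3.10.9.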

Additional observations from a re-analysis of the deposited data

Results flagged for a closer look

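In 6 members the fitted changes against DMSO had opposite signs for the 2 compounds and the direct difference passed (edgeR's quasi-likelihood test, Benjamini-Hochberg adjustment). LINC01004 differed by -1.09 (adjusted p = 3.20e-06), with -0.06 ± 0.15 for rakicidin A and 1.04 ± 0.13 for BE-43547A1. With scaling by total counts alone these were -0.41 (adjusted p = 0.0196) and 0.80 (adjusted p = 2.79e-05), so that both passed, in opposite directions. LINC00479 differed by -1.80 (adjusted p = 3.19e-04). It read 0.611, 0.442 and 0.511 CPM in the DMSO libraries, 0.182, 0.192 and 0.129 CPM after rakicidin A and 0.562, 0.642 and 0.601 CPM after BE-43547A1, so that its rakicidin A libraries lay below all others and its DMSO and BE-43547A1 libraries overlapped. Its fall with rakicidin A was -1.59 ± 0.36 (adjusted p = 8.42e-04) and its value with BE-43547A1 was 0.20 ± 0.26 (adjusted p = 0.50), which was -0.03 with scaling by total counts alone. LINC00610, which RefSeq lists as a synonym of the coding gene COMMD9, differed by -1.19 (adjusted p = 0.0248), from 0.122, 0.284 and 0.483 CPM in the DMSO libraries, 0.182, 0.384 and 0.172 CPM after rakicidin A and 0.517, 0.692 and 0.549 CPM after BE-43547A1. Its call was lost in the leave-one-out fits without rakicidin A replicate 1, rakicidin A replicate 3 or BE-43547A1 replicate 2 (highest adjusted p = 0.107) and with DESeq2 (adjusted p = 0.0549). LINC00479 and LINC00610 had means under 0.5 CPM and were picked after their values were seen. LINC00963 differed by -0.39 (-0.12 with rakicidin A, 0.26 with BE-43547A1), LINC00888 by 0.77 (0.03 and -0.74) and LINC00884 by 0.81 (0.05 and -0.76). With TMM scaling none of the 6 passed in opposite directions against DMSO.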

How the results depend on the processing

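The counts of 55, 66 and 28 members called (rakicidin A against DMSO, BE-43547A1 against DMSO, rakicidin A against BE-43547A1) stayed within 1.5 times under every scaling, filter, tool and left-out library tried. Leave-one-out fits gave 50 to 57, 60 to 66 and 23 to 31, DESeq2 50, 61 and 24, and thinning to the smallest total of 26203326, an alternative chosen after seeing the data, 53, 63 and 25. Where 1 library was left out, 47 of the 55, 58 of the 66 and 21 of the 28 calls passed in every such fit. Requiring a log2 change of at least 1 gave 34 calls (7 rises, 27 falls), 34 calls (9 rises, 25 falls) and 6 calls (0 higher, 6 lower). Scaling by total counts alone moved the members' medians to -0.73, -0.82 and -0.060, the last of which changed sign. It also moved the median of all features to -0.38, -0.24 and -0.14. The cause was not tested.

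Same-numbered libraries deviated little together (correlations of -0.057 to 0.12 over all tested features). A weak pairing could give such values too, so they do not decide whether the numbers pair the libraries. A replicate block gave 55, 66 and 28 calls.

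Of the 45 members with a mean count under 100, 19 did not pass with rakicidin A, against 9 of the 38 others. Whether depth set these calls was not tested.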

Other observations

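Long noncoding RNAs with a name of their own were also counted. Of 33 such RNAs listed, 29 were tested, and 15 rose and 9 fell with rakicidin A (median 0.25), while 11 rose and 10 fell with BE-43547A1 (median 0.01). Of all features, 31.9% rose and 32.7% fell with rakicidin A, and 35.3% and 35.1% with BE-43547A1. These counts describe the list, and the difference from the LINC members was not tested. MIR22HG, the host of miR-22, rose by 2.68 ± 0.06 with rakicidin A and 1.80 ± 0.06 with BE-43547A1 (adjusted p = 8.71e-17 and 1.99e-14, edgeR). KCNQ1OT1, an imprinted antisense RNA that silences its neighbours, rose by 1.37 ± 0.06 and 1.72 ± 0.06. FTX, a regulator of XIST in the X inactivation centre, fell by -1.93 ± 0.08 and -2.01 ± 0.08, and HOTAIR, transcribed from the HOXC cluster, fell by -2.48 ± 0.11 and -2.60 ± 0.11. MIR22HG was higher with rakicidin A than with BE-43547A1 by 0.88 ± 0.06 (adjusted p = 2.13e-09).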
